A study of Mus musculus with 12 samples.

Results

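The genes described here carry out cholesterol synthesis, uptake, storage and efflux in the mouse ovary. They were chosen by symbol, from 35 symbols that include 2 older names, Sc4mol and Sc5dl, beside the current names Msmo1 and Sc5d. The table of 24255 genes held a row for 33 of the symbols and none for the 2 older names, so 33 genes are described: 17 synthesis enzymes, 5 regulators, 4 uptake receptors, 3 genes of transport and esterification, and 4 of the LXR and efflux pathway. All 33 passed the filter on low values (at least 1 FPKM in at least 5 libraries), so none was left out of the tests.

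RNA was sequenced from whole ovaries of C57BL/6 mice, 7 wild-type (WT) libraries and 5 libraries from mice with a Gdf9-Cre mediated knockout of Mtor (CKO). The Gdf9 promoter is active in oocytes, so the deletion is directed to them and not to the granulosa, theca, luteal and stromal cells that make most ovarian RNA. All mice were 6 months old, and all, controls included, had received 5 IU of eCG (equine chorionic gonadotropin, also called PMSG), which acts like follicle-stimulating hormone, 46 h before collection. The labels do not say whether WT mice carried the floxed allele or the Cre, nor that each library is a separate animal, so the p-values rest on library-to-library spread, which may be partly technical.

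Cells obtain cholesterol from acetyl-CoA through the mevalonate pathway or from lipoproteins taken up at the surface. When sterols in the endoplasmic reticulum are low, SCAP escorts the transcription factors SREBP1 and SREBP2 to the Golgi for activation, and these switch on the synthesis and uptake genes, while INSIG proteins hold SCAP back when sterols are plentiful. When oxidised sterols accumulate, the nuclear receptors LXR-alpha and LXR-beta switch on efflux pumps. In the ovary, theca and luteal cells use cholesterol to make steroid hormones and draw much of it from high-density lipoprotein through the receptor SR-BI, and oocytes depend on the surrounding cumulus cells for it.

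The promoters shown are those of an enzyme whose window held a sterol regulatory element (Hmgcs1), of 2 enzymes with large negative differences (Idi1 and Dhcr7) and, as a contrast, of the gene with the largest positive difference (Nr1h3). Each is the 250 bases before the start site, 5′ to 3′ on the gene's strand, from RefSeq on GRCm38.p6, the assembly also called mm10: Hmgcs1 chr13:119690101-119690350 (plus), Idi1 chr13:8885356-8885605 (plus), Dhcr7 chr7:143829964-143830213 (plus) and Nr1h3 chr2:91195117-91195366 (minus). For Dhcr7, which has 3 start sites in the table, and Nr1h3, which has 2, the window of 1 start is shown. Capitals mark matches on either strand to 3 motifs, spelled here for the gene's strand: the sterol regulatory element TCACNCCAC, the box CCAAT that NF-Y, a partner of SREBP, binds, and the GC box GGGCGG that SP1 binds. A match on the other strand appears as its reverse complement.
Hmgcs1: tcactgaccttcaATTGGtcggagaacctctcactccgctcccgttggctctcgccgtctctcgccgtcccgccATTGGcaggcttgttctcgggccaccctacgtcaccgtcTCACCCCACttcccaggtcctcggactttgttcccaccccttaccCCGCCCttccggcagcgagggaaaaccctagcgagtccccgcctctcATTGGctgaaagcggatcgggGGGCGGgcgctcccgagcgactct
Idi1: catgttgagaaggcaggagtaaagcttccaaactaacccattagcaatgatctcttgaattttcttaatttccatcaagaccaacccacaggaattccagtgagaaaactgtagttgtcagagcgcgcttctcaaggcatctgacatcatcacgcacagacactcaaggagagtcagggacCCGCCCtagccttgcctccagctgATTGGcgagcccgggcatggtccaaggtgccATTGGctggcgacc
Dhcr7: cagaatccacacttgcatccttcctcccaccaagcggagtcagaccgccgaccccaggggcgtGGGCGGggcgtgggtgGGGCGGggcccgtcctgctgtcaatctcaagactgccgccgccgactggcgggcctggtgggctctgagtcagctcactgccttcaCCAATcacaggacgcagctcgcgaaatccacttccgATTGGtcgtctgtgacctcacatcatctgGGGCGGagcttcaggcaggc
Nr1h3: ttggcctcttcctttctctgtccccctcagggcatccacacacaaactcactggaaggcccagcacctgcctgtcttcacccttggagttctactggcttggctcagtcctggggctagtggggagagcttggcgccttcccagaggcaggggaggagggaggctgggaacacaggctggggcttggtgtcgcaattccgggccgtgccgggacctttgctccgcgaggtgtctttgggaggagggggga

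The Hmgcs1 window held 1 sterol regulatory element, beginning 137 bases before the start, with 3 CCAAT and 2 GC boxes. The windows of Idi1 and Dhcr7 held 2 CCAAT boxes each. The Dhcr7 window shown is the richest of its 3, since the other two held 0 CCAAT boxes and 1 and 0 GC boxes. Neither window of Nr1h3 held any of the 3 motifs. Promoters were found for 27 of the 33 genes, and Abcg1, Fdft1, Fdps, Scarb1, Sqle and Stard4 had none in the table. Among the synthesis enzymes, 13 of 17 windows, of 14 genes, held a CCAAT box, 14 a GC box and 1 the sterol regulatory element. Among the other members, the counts were 8, 11 and 0 of 22 windows, from 13 genes. Of all 32851 promoter windows of this length, 33.85% held the CCAAT box, 32.74% the GC box and 1.05% the sterol regulatory element. These are letter matches and not measured binding sites, and the 3 motifs do not overlap in the windows printed.

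Mtor itself did not differ detectably in the whole organ, at 4.70 ± 0.702 FPKM (SD) over the 7 WT libraries and 5.02 ± 0.499 FPKM (SD) over the 5 CKO libraries, which does not check a deletion restricted to oocytes. FPKM counts sequenced fragments relative to transcript length and library size, so it allows levels of different genes to be compared. By the steps between low values, library depths differed by at most 1.77-fold, and 14945 to 16083 genes per library were above 0. Oocyte markers summed to 46.8 to 166 FPKM in WT and 7.80 to 46.6 FPKM in CKO, and 4 of the 7 tested fell. Granulosa markers summed to 3713 to 6621 FPKM in WT and 1329 to 2476 FPKM in CKO, and all 10 fell, while theca markers (0 of 7 called by limma, 1 at an unadjusted p under 0.05) and luteal markers (1 of 7 lower) were not separated by genotype as lists. Of 10 macrophage markers 8 rose, and of 7 stromal markers 3 rose.

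One WT library stood apart in these genes, and results are given with and without it. Its column name matches the labels of 2 WT samples, so it was given no replicate number and is called the unnumbered WT library. By the description labels, which the other columns follow, it would be the WT sample that no other column matches. It was the lowest of the 12 libraries for 14 of the 17 synthesis enzymes (82.4%), against 10.8% of all genes tested, and the lowest of the WT libraries for all 17. Its summed luteal markers, at 385 FPKM, were the lowest of the 12, against 1667 to 6196 FPKM in the other WT libraries. Its summed theca markers were at 7624 FPKM, against 11755 FPKM or more in the other WT libraries. Most of that sum was Hsd3b1 (6130 FPKM) and Cyp11a1 (1419 FPKM), genes of steroid synthesis. Luteal cells also make steroids, so the sum does not measure theca cells alone. Both lists were uneven in this library. The theca genes Ptch1 and Gli1 were the highest of the 12, at 10.5 and 14.4 FPKM. The luteal gene Cited4 was at 186 FPKM, near the WT maximum of 187 FPKM in this library. Its granulosa markers, at 3716 FPKM, were near the lowest WT sum of 3713 FPKM, and the list was uneven in it. Cyp19a1, the aromatase, was at 1.26 FPKM against 28.8 to 88.9 FPKM in the other WT libraries, and Inhba, an activin and inhibin subunit, at 39.4 FPKM against 194 to 501 FPKM. Amh, a hormone of small growing follicles, was at 309 FPKM, the highest of the 12. Its oocyte markers, at 166 FPKM, were the highest of the 12, and its endothelial markers, at 58.3 FPKM, the lowest, against 79.8 FPKM or more in the other WT libraries. The part of these cell types in the enzyme levels was not tested. In whole ovaries, fewer cells of a type and less RNA per cell cannot be told apart.

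Differences between the genotypes were estimated on log2(FPKM + 1) with limma over 13168 genes, and a gene was called at a Benjamini-Hochberg adjusted p under 0.05. With all 12 libraries, Nr1h3, Lrp1 and Stard5 were higher in CKO and Scap and Stard4 lower. These 3 of 33 genes (9.09%) and 2 of 33 (6.06%) compare with 8.7% higher and 7.59% lower among all genes tested, so neither share stood out from the background. Without the unnumbered WT library the same 3 genes were higher, and 9 were lower: Pmvk, Idi1, Sqle, Lss, Dhcr7, Scap, Lrp8, Scarb1 and Stard4. Those 9 of 33 (27.3%) compare with 8.4% of all genes in that fit, where 9.11% were higher. The library was left out with its low levels of these genes known, so the second count is a description of the other 11 libraries and not independent evidence. Of the 33 genes, 25 had a negative log2 fold change and the median was -0.26, against -0.01 over all genes tested. Without the unnumbered WT library the median was -0.59.

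**Figure D1:**
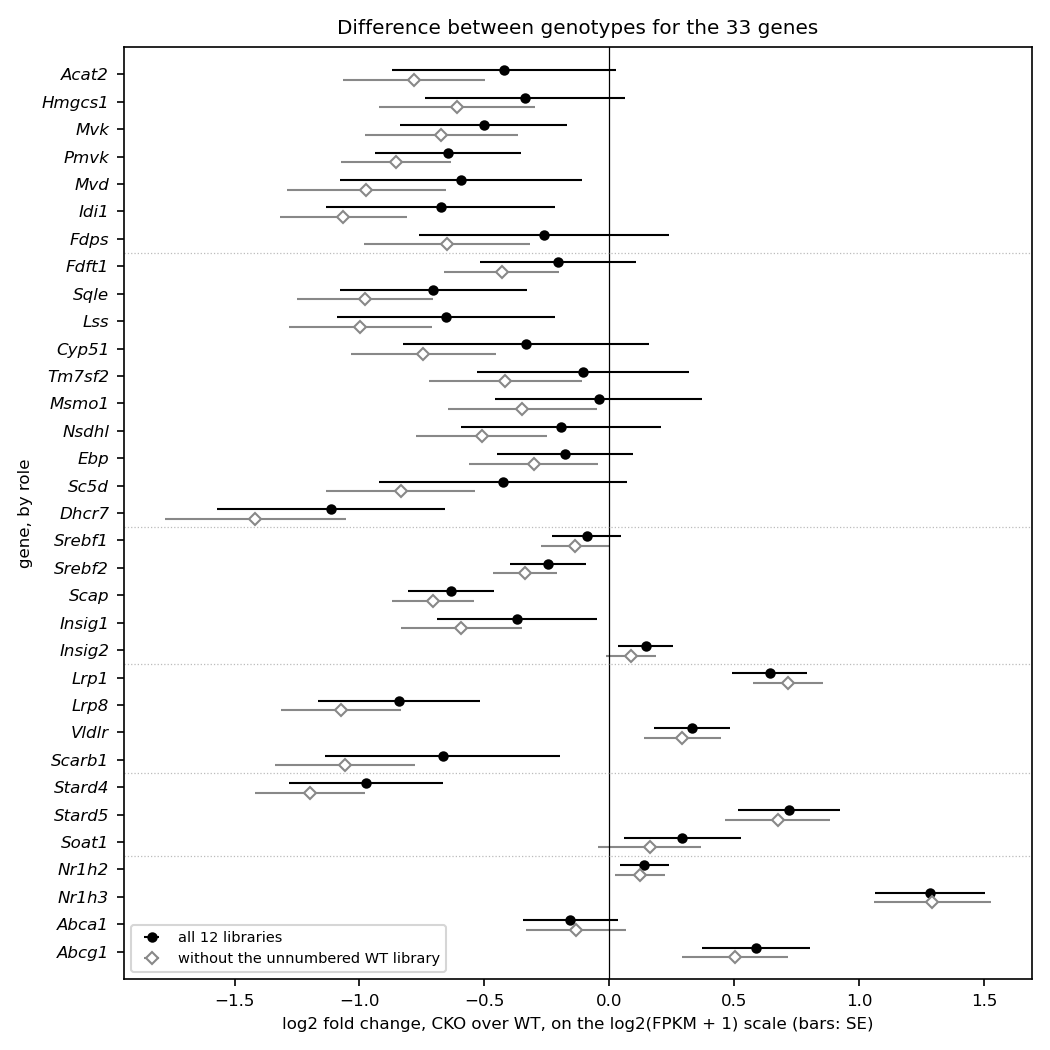
Log2 fold changes (x axis, CKO over WT, bars are the SE of the limma fit) of the 33 genes, grouped by role from the first enzymes at the top to the efflux genes at the bottom. Filled points use all 12 libraries and open diamonds leave out the unnumbered WT library; all 17 enzymes lie left of zero in both, and further left without that library.

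The first steps of the pathway build isoprenoids from acetyl-CoA. Acat2 makes acetoacetyl-CoA, Hmgcs1 is the HMG-CoA synthase, Mvk and Pmvk phosphorylate mevalonate, Mvd and Idi1 form and isomerise isopentenyl diphosphate, and Fdps condenses it to farnesyl diphosphate. None of the 7 was called with all libraries (limma; Pmvk alone had an unadjusted p under 0.05), although each had a negative log2 fold change, from -0.26 for Fdps to -0.68 for Idi1.

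Hmgcs1 was the most abundant of these 7 enzymes. It ranged from 154 to 861 FPKM in WT with a median of 505, and lay at 157, 311, 709, 480 and 468 FPKM in CKO replicates 1 to 5. The genotypes overlapped, with CKO replicate 3 above the WT median and CKO replicate 1 near the lowest WT library. Its log2 fold change was -0.34 (SE 0.40, adjusted p = 0.620, limma).

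Idi1 lay between 7.54 and 86.3 FPKM in WT with a median of 47.6, and at 14.9, 20.1, 43.9, 24.7 and 35.4 FPKM in CKO. Its lowest WT value was that of the unnumbered library, and the other 6 WT libraries began at 41.0 FPKM, below only CKO replicate 3. On the log2 scale the difference was -0.68 (SE 0.46, adjusted p = 0.351), and -1.06 without that library (SE 0.25, adjusted p = 0.0113, limma).

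Pmvk ranged from 14.5 to 66.2 FPKM in WT with a median of 39.3, and lay at 15.9, 17.9, 31.4, 20.7 and 30.4 FPKM in CKO. All 5 CKO libraries were below the WT median, and they overlapped with WT replicate 6 at 27.0 FPKM and the unnumbered library. The log2 fold change was -0.65 (SE 0.29, adjusted p = 0.152), and -0.85 without the unnumbered library (SE 0.22, adjusted p = 0.0168, limma). Acat2, Mvk, Mvd, Hmgcs1 and Fdps were not called in either fit.

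Mvd ranged from 7.26 to 77.7 FPKM in WT with a median of 46.3, and lay at 15.2, 12.8, 36.1, 30.5 and 50.003 FPKM in CKO. Of the 5 uncalled enzymes it was nearest to the threshold without the unnumbered library, at -0.97 (adjusted p = 0.0511, limma). Acat2 ranged from 13.3 to 135 FPKM in WT and lay at 28.4, 27.6, 73.3, 51.2 and 76.6 FPKM in CKO, with a log2 fold change of -0.42 (SE 0.45). In CKO replicates 3 and 5, Acat2 was above the WT median of 69.6 FPKM, and in the other 3 CKO libraries below it.

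Fdps, whose product also feeds protein prenylation, spanned 19.6 to 260 FPKM among WT libraries and 43.2 to 140 FPKM among CKO libraries. Mvk, the least abundant of the 7, spanned 10.1 to 32.1 FPKM among WT libraries and 6.70 to 25.4 FPKM among CKO libraries, with a log2 fold change of -0.50 (SE 0.33). Its lowest value was that of CKO replicate 2, the only one of the 7 enzymes for which the unnumbered WT library was not the lowest of the 12.

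From farnesyl diphosphate onward, 10 enzymes form squalene and then the sterol rings. Fdft1 is squalene synthase, Sqle oxidises squalene, and Lss closes the rings to lanosterol. Cyp51, Tm7sf2, Msmo1, Nsdhl, Ebp and Sc5d demethylate, reduce, isomerise and desaturate the sterol nucleus, and Dhcr7 reduces 7-dehydrocholesterol to cholesterol. None of the 10 was called with all libraries (limma; Dhcr7 alone had an unadjusted p under 0.05), and their log2 fold changes ran from -1.11 for Dhcr7 to -0.04 for Msmo1. The signs of Msmo1, Tm7sf2 and Ebp turned positive in some fits with 1 library left out.

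Dhcr7 had the largest difference of all 17 enzymes. It ranged from 37.6 to 291 FPKM in WT with a median of 145, and lay at 30.9, 34.6, 88.3, 104 and 93.9 FPKM in CKO. All CKO libraries were below the WT median, and 4 of the 5 were below every numbered WT library, of which the lowest was at 97.0 FPKM. This gave a log2 fold change of -1.11 (SE 0.46, 95% interval from -2.09 to -0.14, adjusted p = 0.116), and -1.42 without the unnumbered library (SE 0.36, adjusted p = 0.0164, limma).

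Sqle, a rate-limiting oxygenase of the pathway, ranged from 25.8 to 150 FPKM in WT with a median of 82.1, and lay at 32.0, 41.2, 99.5, 42.1 and 58.6 FPKM in CKO. Only CKO replicate 3 reached the numbered WT libraries, which began at 75.3 FPKM. The log2 fold change moved from -0.70 (SE 0.38, adjusted p = 0.227) to -0.98 (SE 0.27, adjusted p = 0.0252) without the unnumbered library (limma).

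Lss showed a like pattern, at 9.68, 14.2, 41.9, 21.7 and 22.6 FPKM in CKO, against 6.77 FPKM in the unnumbered WT library and 33.9 to 62.9 FPKM in the numbered ones. CKO replicate 3 again lay among the WT libraries and the other 4 CKO libraries below the numbered ones. Its log2 fold change was -0.65 (SE 0.44, adjusted p = 0.345) and, without the unnumbered library, -0.996 (SE 0.285, adjusted p = 0.0283, limma).

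The other 7 sterol enzymes were not called in either fit. Msmo1, which removes the methyl groups of the sterol ring, and Sc5d, a desaturase, were the most abundant of the 10. Msmo1 ranged from 88.7 to 720 FPKM in WT with a median of 329, and lay at 199, 219, 634, 258 and 393 FPKM in CKO. The genotypes overlapped almost completely, with a log2 fold change of -0.04 (SE 0.41, 95% interval from -0.93 to 0.84, adjusted p = 0.958, limma). Sc5d spanned 55.3 to 551 FPKM among WT libraries and 101 to 382 FPKM among CKO libraries. Its highest CKO value was in CKO replicate 2, a library that was low for most other enzymes. Tm7sf2, a sterol reductase, was the least abundant enzyme, at 7.77 ± 4.49 FPKM (SD) over the 7 WT libraries and 6.63 ± 3.71 FPKM (SD) over the 5 CKO libraries.

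Cyp51, the lanosterol demethylase, ranged from 19.0 to 233 FPKM in WT with a median of 125, and lay at 57.3, 59.4, 195, 68.7 and 104 FPKM in CKO. The 6 numbered WT libraries began at 121 FPKM, and CKO replicate 3 alone was above that. Its log2 fold change was -0.33 (SE 0.49, adjusted p = 0.702, limma). Nsdhl, a sterol dehydrogenase, lay at 28.1, 27.8, 86.0, 36.7 and 56.7 FPKM in CKO, against a WT range of 12.4 to 86.8 FPKM.

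Fdft1, at the branch point from isoprenoids to sterols, spanned 17.3 to 68.4 FPKM among WT libraries and 24.8 to 69.1 FPKM among CKO libraries. It was the 1 enzyme whose highest value was in a CKO library, CKO replicate 3. Ebp, a sterol isomerase, spanned 22.8 to 80.1 FPKM among WT libraries and 20.3 to 55.8 FPKM among CKO libraries, with a log2 fold change of -0.18 (SE 0.27).

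With all libraries, the genotype means of the enzymes differed by less than the SD within either genotype. The mean log2(FPKM + 1) was 6.08 ± 0.88 in WT (SD, n = 7), 6.38 ± 0.37 in the 6 numbered WT libraries (SD, n = 6), and 5.64 ± 0.61 in CKO (SD, n = 5). From lowest to highest, the libraries began with the unnumbered WT library (4.25), CKO replicate 1 (4.94), CKO replicate 2 (5.15) and CKO replicate 4 (5.67). They ended with CKO replicate 3 (6.43), WT replicate 4 (6.59) and WT replicate 7 (7.03).

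WT replicate 7 was the highest of the 12 libraries for 14 of the 17 enzymes, against 6.43% of all genes tested. CKO replicate 1 was below every numbered WT library for all 17 enzymes and CKO replicate 2 for 15 of them. CKO replicates 4 and 5 were so for 11 and 6, and CKO replicate 3 for 1. Libraries that were low or high for one enzyme were so for most of them, in both genotypes.

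**Figure D2:**
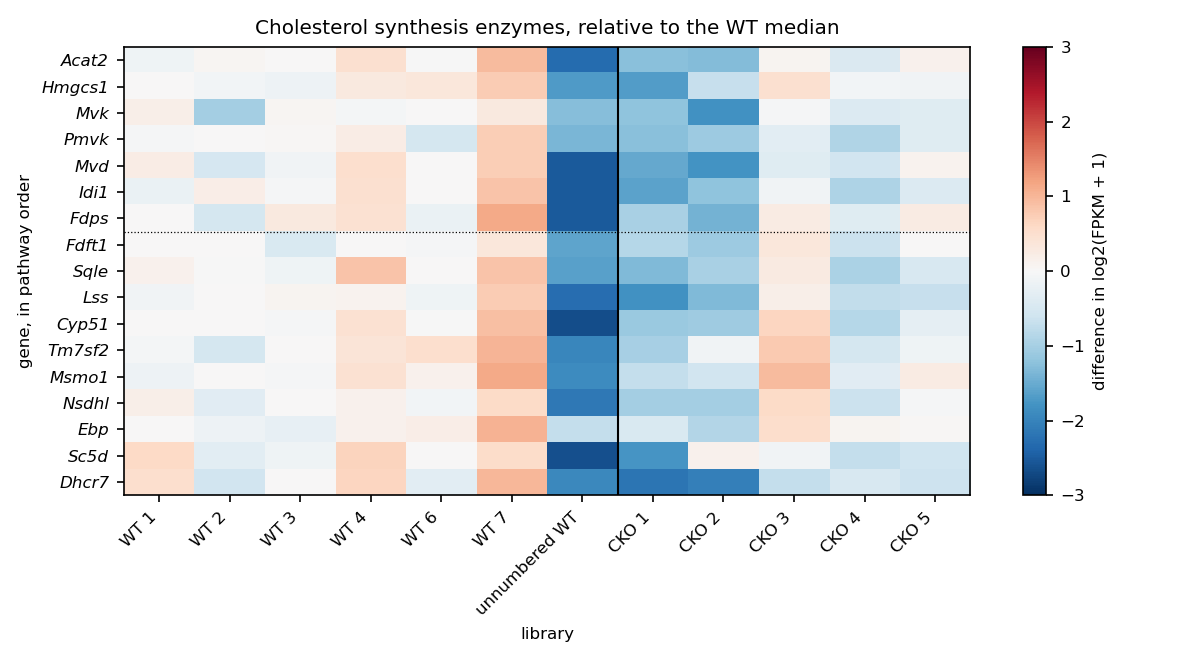
Difference of each synthesis enzyme (rows, in pathway order, the dotted line after Fdps) from its own WT median in log2(FPKM + 1), in each of the 12 libraries (columns, WT left of the line). The unnumbered WT library and CKO replicates 1 and 2 are low across most rows, WT replicate 7 is high, and CKO replicate 3 is near or above the WT median for most enzymes.

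Cell type markers also differed between these libraries. In CKO replicate 1, theca markers summed to 6556 FPKM, mostly Hsd3b1 (4890 FPKM), the lowest of all libraries. Its luteal markers summed to 2201 FPKM, mostly Sfrp4 (1784 FPKM), the lowest in CKO. Both lists were uneven in it. Of the theca genes, Hsd3b1, Cyp11a1 and Lhcgr were lowest in CKO there, and Cyp17a1 and Insl3 highest in CKO. Of the luteal genes, Prlr, Ptgfr, Parm1, Sfrp4 and Cited4 were lowest in CKO there, and Akr1c18 and Timp1 highest in CKO. CKO replicate 3, highest in CKO for the enzymes, was highest in CKO for both summed lists, at 16158 and 7959 FPKM. Hsd3b1 made up 12117 FPKM of the theca sum and Sfrp4 7013 FPKM of the luteal sum. The theca genes Ptch1 and Gli1 were lowest in CKO there, at 1.09 and 4.33 FPKM. Insl3, Lhcgr and the luteal gene Akr1c18 were below their CKO medians there, while Hsd3b1, Cyp11a1, Prlr, Ptgfr and Sfrp4 were highest in CKO. Blood markers were at 276 and 316 FPKM in CKO replicates 1 and 5, against 12.96 to 248 FPKM elsewhere, and the oviduct gene Ovgp1 at 252 and 81.9 FPKM in CKO replicates 2 and 3, against 1.87 FPKM or less elsewhere. Fat markers summed to 3.80 to 14.4 FPKM in WT and 1.08 to 4.22 FPKM in CKO, with Cidec and Cfd at 0 in all 12 libraries. Markers of the adrenal cortex summed to 1.30 to 13.7 and 4.10 to 20.4 FPKM, highest in CKO replicate 3, with Cyp11b1 called higher in CKO and Cyp11b2 at 0 in all 12. The part of any of these tissues in the enzyme levels was not tested.

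**Figure D3:**
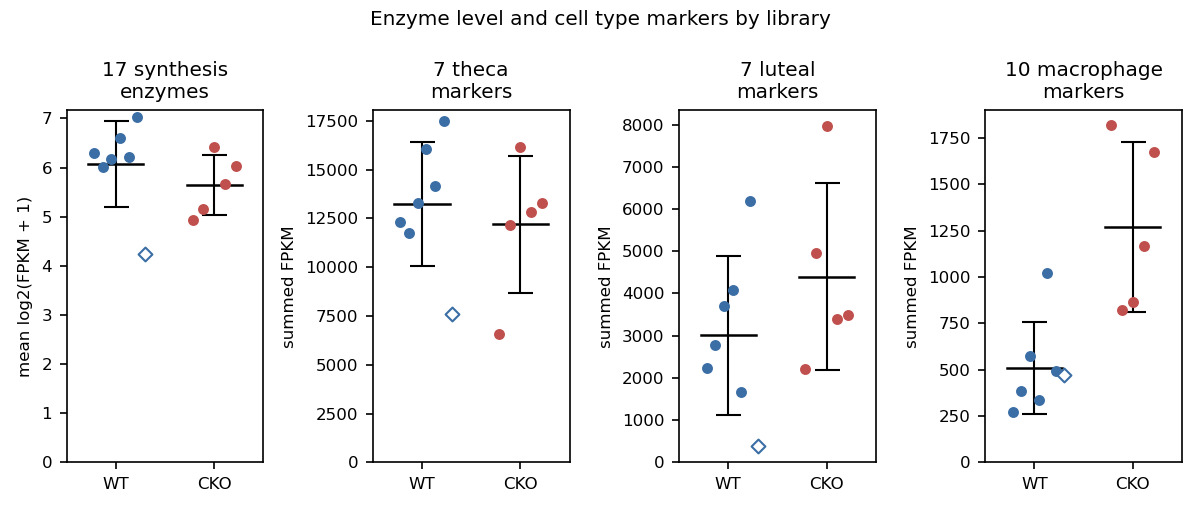
Mean log2(FPKM + 1) of the 17 enzymes, and summed FPKM of theca, luteal and macrophage markers, per library (points), with the mean and SD of each genotype (bars, WT n = 7, CKO n = 5). The open diamond is the unnumbered WT library, which lies lowest for enzymes and luteal markers and within the WT range for macrophage markers.

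Of the 5 regulators of SREBP, only Scap was called. Scap, the sterol-sensing escort of SREBP, ranged from 48.0 to 82.4 FPKM in WT with a median of 69.2, and lay at 27.6, 39.6, 39.9, 59.5 and 48.7 FPKM in CKO. CKO replicates 4 and 5 reached the lowest WT libraries, and the other 3 lay below them all. It fell by 0.63 on the log2 scale (SE 0.17, adjusted p = 0.0211), and by 0.71 without the unnumbered library (SE 0.16, adjusted p = 0.00975, limma). Without CKO replicate 1 the adjusted p was 0.0516, with a log2 fold change of -0.49. Scap lies on chromosome 9 from 110333288 to 110384950 (plus strand, mm10, GENCODE M21).

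Its partners did not pass the test. Srebf2, the SREBP that mainly drives cholesterol synthesis, was at 33.3 ± 5.77 FPKM (SD) over the 7 WT libraries and 28.01 ± 6.10 FPKM (SD) over the 5 CKO libraries, with a log2 fold change of -0.25 (SE 0.15, adjusted p = 0.3003, limma). Srebf1, which leans towards fatty acid synthesis, was at 11.9 ± 1.498 and 11.2 ± 2.32 FPKM, a difference of -0.09 (95% interval from -0.38 to 0.20). SREBP activity is set by processing of the protein, which RNA levels do not measure.

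The 2 INSIG genes, which retain SCAP in the endoplasmic reticulum, had opposite signs and neither was called. Insig1, itself a target of SREBP, ranged from 48.9 to 244 FPKM in WT and lay at 64.4, 70.3, 154, 105 and 116 FPKM in CKO. Like most enzymes, it was lowest among WT in the unnumbered library and highest in WT replicate 7. Insig2 was even across libraries, at 32.9 ± 4.52 FPKM (SD) over the 7 WT libraries and 36.3 ± 3.55 FPKM (SD) over the 5 CKO libraries, with a log2 fold change of 0.15 (95% interval from -0.09 to 0.38).

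Of the 4 lipoprotein receptors, only Lrp1 was called with all libraries. Lrp1, a large endocytic receptor for apolipoprotein E remnants and many other ligands, ranged from 11.96 to 20.5 FPKM in WT with a median of 14.1, and lay at 23.8, 20.6, 27.8, 27.5 and 19.9 FPKM in CKO. Every CKO library was above the 6 numbered WT libraries, and CKO replicate 5 was below the unnumbered one. It rose by 0.64 on the log2 scale (SE 0.15, adjusted p = 0.01001, limma). The call held whichever of the 12 libraries was left out. Lrp1 lies on chromosome 10 from 127538161 to 127621148 (minus strand).

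Lrp8, the apolipoprotein E receptor 2, was not called with all libraries (log2 fold change -0.84, SE 0.32, adjusted p = 0.0936, limma). It ranged from 5.16 to 25.9 FPKM in WT with a median of 15.9, and lay at 4.47, 5.47, 12.3, 8.41 and 12.4 FPKM in CKO. All CKO libraries were below the numbered WT libraries, which began at 14.2 FPKM. Without the unnumbered library the log2 fold change was -1.07 (SE 0.24, adjusted p = 0.00793, limma).

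Scarb1, which encodes SR-BI, was the most abundant of the 33 genes and ranged from 138 to 1204 FPKM in WT with a median of 939. It lay at 222, 382, 745, 495 and 541 FPKM in CKO, all below the WT median, and the unnumbered WT library was the lowest of the 12. The log2 fold change was -0.67 (SE 0.47, adjusted p = 0.375), and -1.06 without the unnumbered library (SE 0.28, adjusted p = 0.0197, limma). Vldlr, the receptor for very-low-density lipoprotein, was at 10.3 ± 1.85 FPKM (SD) over the 7 WT libraries and 13.3 ± 3.13 FPKM (SD) over the 5 CKO libraries, and was not called (log2 fold change 0.33, SE 0.15, adjusted p = 0.156, limma).

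The 2 cytosolic cholesterol carriers of the START family were called in opposite directions. Stard4, which shuttles cholesterol between membranes and is a known SREBP target, ranged from 9.42 to 48.4 FPKM in WT with a median of 28.1, and lay at 6.85, 12.04, 18.9, 13.7 and 14.2 FPKM in CKO. All CKO libraries were below the numbered WT libraries, which began at 23.7 FPKM. It fell by 0.97 on the log2 scale (SE 0.31, adjusted p = 0.0433, limma). The call failed in 10 of the 12 fits with 1 library left out, in all but those without CKO replicate 3 or the unnumbered WT library, with adjusted p between 0.00281 and 0.114 over the 12.

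Stard5, a related carrier, ranged from 14.5 to 36.4 FPKM in WT with a median of 23.2, and lay at 37.3, 31.9, 61.4, 35.5 and 35.3 FPKM in CKO. The genotypes overlapped only through WT replicate 7, the highest WT library. It rose by 0.72 on the log2 scale (SE 0.20, adjusted p = 0.0270, limma), and by 0.56 without CKO replicate 3 (adjusted p = 0.0731), where the call was lost. Stard4 lies on chromosome 18 from 33199355 to 33213862 (minus strand) and Stard5 on chromosome 7 from 83631959 to 83653127 (plus strand).

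Soat1, the enzyme that esterifies cholesterol for storage in lipid droplets, was at 161 ± 45.05 FPKM (SD) over the 7 WT libraries and 199.5 ± 74.99 FPKM (SD) over the 5 CKO libraries. The difference was not called (log2 fold change 0.29, SE 0.23, adjusted p = 0.442, limma), and its highest value, 327 FPKM, was in CKO replicate 3.

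Of the LXR and efflux genes, Nr1h3 rose and the other 3 were not called. Nr1h3 encodes LXR-alpha, the oxysterol receptor that is enriched in macrophages and liver. It ranged from 1.42 to 5.21 FPKM in WT with a median of 3.21, and lay at 11.4, 8.44, 8.85, 6.45 and 9.45 FPKM in CKO. It was the only one of the 33 genes whose genotypes did not overlap (3.03%, against 7.73% of all genes tested). Without the unnumbered WT library, Lrp1, Lrp8 and Stard4 joined it, 12.1% against 10.2% of all genes.

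Nr1h3 had a log2 fold change of 1.28 (SE 0.22, adjusted p = 0.00164, limma), and was called in all 23 alternative fits, with adjusted p between 0.0011 and 0.0327. The gene lies on chromosome 2 from 91184061 to 91202834 (minus strand). Nr1h2, which encodes the more widely expressed LXR-beta, was at 28.3 ± 3.15 FPKM (SD) over the 7 WT libraries and 31.3 ± 2.74 FPKM (SD) over the 5 CKO libraries, and was not called (log2 fold change 0.14, SE 0.10, adjusted p = 0.365, limma). It remained the more abundant of the pair in every library.

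The 2 efflux pumps switched on by LXR did not pass. Abca1, which loads cholesterol onto apolipoprotein A-I, was at 30.9 ± 7.87 FPKM (SD) over the 7 WT libraries and 27.9 ± 8.81 FPKM (SD) over the 5 CKO libraries, with a log2 fold change of -0.16 (95% interval from -0.56 to 0.25, adjusted p = 0.630, limma). Abcg1, which exports cholesterol to high-density lipoprotein, ranged from 2.95 to 6.52 FPKM in WT with a median of 4.59, and lay at 8.70, 4.28, 6.46, 7.76 and 11.6 FPKM in CKO. CKO replicates 1, 4 and 5 were above all WT libraries, and CKO replicate 2 was below the WT median. Its log2 fold change was 0.59 (SE 0.22, adjusted p = 0.0800), and it was called without CKO replicate 2 (0.76, adjusted p = 0.0225, limma).

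**Figure D4:**
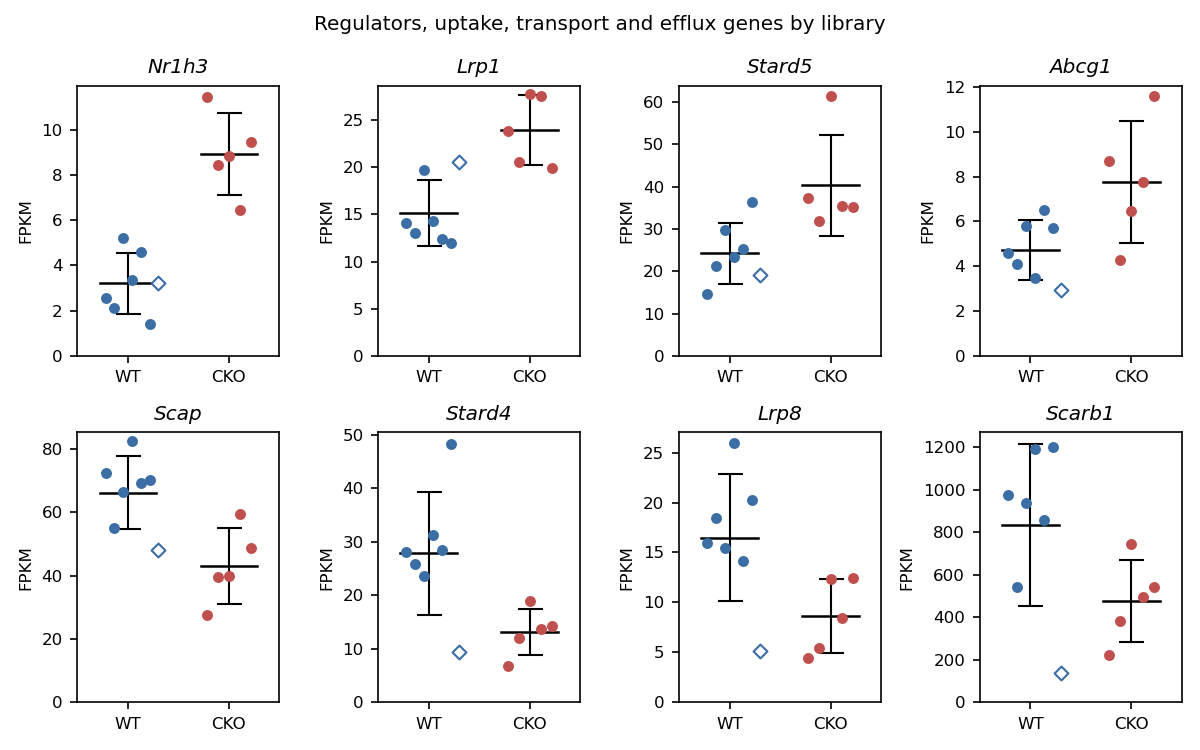
FPKM per library of the 5 called genes (Nr1h3, Lrp1, Stard5, Scap, Stard4) and of Abcg1, Lrp8 and Scarb1, with the mean and SD of each genotype (bars, WT n = 7, CKO n = 5); the open diamond is the unnumbered WT library. Nr1h3 separates the genotypes completely, Lrp1 does so among the numbered libraries, and Stard4, Lrp8 and Scarb1 are low in the unnumbered WT library.

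Macrophage marker sums are given here beside Nr1h3, Abcg1, Lrp1 and Stard5 by library, and a link between them was not tested. The summed level of the 10 markers was 273 to 1020 FPKM in WT and 820 to 1822 FPKM in CKO, highest in CKO replicates 1 and 5 (1822 and 1675 FPKM). Nr1h3 was highest in CKO replicates 1 and 5 and lowest in CKO in CKO replicate 4 (6.45 FPKM), at the CKO median macrophage sum of 1170 FPKM. Abcg1 was highest in CKO replicates 5 and 1, and Lrp1 in CKO replicates 3 and 4. Stard5 was highest in CKO replicate 3, where the macrophage markers summed to 864 FPKM, and next in CKO replicate 1 (37.3 FPKM). In WT replicate 6, which had the highest macrophage sum in WT, Lrp1 was at 12.3, Nr1h3 at 4.585 and Abcg1 at 6.52 FPKM. WT replicate 3 had the highest Cd68 (25.9 FPKM) and Gpnmb (21.2 FPKM) in WT, but of no other listed macrophage marker. Nr1h3 was there at 5.21 and Abcg1 at 5.79 FPKM. Lrp1 was there at 19.8 FPKM, the highest of the numbered WT libraries. In WT replicate 7, with Cd68 at 19.0 FPKM, Nr1h3 (1.42 FPKM) and Lrp1 (11.96 FPKM) were the lowest of the 12 libraries. Abcg1 was there at 5.71 FPKM. The stromal sum separated the genotypes completely, at 564 to 811 FPKM in WT and 1466 to 1876 FPKM in CKO, although 5 of its 7 genes overlapped. The granulosa sum was likewise lower in every CKO library than in any WT library, beside the lower levels of Scap and Stard4, while 4 of its 10 genes (Foxl2, Fshr, Cyp19a1 and Inhba) overlapped. The part of macrophages, stroma and granulosa cells in the differences of the called genes was not tested.

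A further 23 genes of cholesterol metabolism were listed beside the members, of which 22 could be tested. Of these, Lipa, Cyp27a1, Ch25h and Lpl were higher in CKO and Nceh1 and Gramd1b lower, and 16 were not called. Among all genes tested, 8.7% were higher and 7.59% lower. Whether this list held more called genes than that background was not tested. Lipa, the lysosomal acid lipase that frees cholesterol from lipoprotein esters, spanned 43.0 to 75.5 FPKM among WT libraries and 99.7 to 153 FPKM among CKO libraries, with no overlap. It rose by 1.06 on the log2 scale (SE 0.14, adjusted p = 0.000404, limma).

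Cyp27a1 and Ch25h, which make oxysterols that LXR senses, were also higher. Cyp27a1, the sterol 27-hydroxylase, spanned 2.47 to 6.09 FPKM among WT libraries and 5.99 to 13.4 FPKM among CKO libraries, and rose by 0.86 (SE 0.21, adjusted p = 0.0119, limma). Ch25h, the cholesterol 25-hydroxylase, spanned 4.27 to 16.1 FPKM among WT libraries and 10.6 to 24.5 FPKM among CKO libraries, and rose by 0.89 (SE 0.29, adjusted p = 0.0486, limma). That call did not hold in 8 of the 12 fits with 1 library left out.

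Lpl, which releases fatty acids from lipoproteins, spanned 19.2 to 38.0 FPKM among WT libraries and 27.0 to 71.2 FPKM among CKO libraries. It rose by 0.77 (SE 0.21, adjusted p = 0.0221, limma), and the call was lost without CKO replicate 1 (adjusted p = 0.0511) and without CKO replicate 5 (adjusted p = 0.0534). Nceh1, which hydrolyses stored cholesterol esters, fell by 0.47 (SE 0.14, adjusted p = 0.0287), and Gramd1b, a carrier of plasma membrane cholesterol, fell by 0.73 (SE 0.22, adjusted p = 0.0384, limma). With 1 library left out, the call was lost in 4 of 12 fits for Nceh1 and in 7 of 12 for Gramd1b. Without the unnumbered WT library, Ch25h and Gramd1b were no longer called (adjusted p = 0.0695 and 0.0519), while Hsd17b7 and Mylip were.

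Mylip, a ligase that marks lipoprotein receptors for degradation and is named here after its value was seen, was then higher by 0.50 (SE 0.16, adjusted p = 0.0499, limma). Hsd17b7, which acts in sterol demethylation and in luteal estradiol synthesis, had the largest difference of these 22 genes without being called. It spanned 11.5 to 955 FPKM among WT libraries and 28.7 to 247 FPKM among CKO libraries. As for the synthesis enzymes, its lowest value was in the unnumbered WT library, while the numbered WT libraries began at 364 FPKM, above every CKO library. The log2 fold change was -1.66 (SE 0.92, adjusted p = 0.245), and -2.47 without that library (SE 0.46, adjusted p = 0.0029, limma).

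The authors' deposited table, made with Cuffdiff, calls more of the 33 genes at q under 0.05. The authors' deposited table lists 4 as higher in CKO, namely Abcg1, Lrp1, Nr1h3 and Stard5, and 13 as lower. The 13 in the authors' deposited table are Acat2, Dhcr7, Idi1, Insig1, Lrp8, Lss, Mvd, Pmvk, Sc5d, Scap, Scarb1, Sqle and Stard4. All 5 genes called here are among them, in the same direction. The share of all genes that Cuffdiff called was not computed here, so these counts have no background beside them. The log2 fold change of Dhcr7 in the authors' deposited table is -1.19 and that of Nr1h3 is 1.48, both on FPKM without a pseudocount.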

How the data were processed

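Whole-ovary RNA of 7 WT and 5 CKO samples was sequenced as poly(A) libraries. Per the labels and the series' design text, the authors aligned trimmed reads to mm10 with TopHat2 2.0.13 and computed and normalized FPKM with Cufflinks 2.2.1. The annotation, the scaling and any use of strand were not stated in those sources. Cuffdiff gave the authors' q-values (adjusted p-values) and log2 fold changes. Recomputed as CKO over WT, the deposited fold changes matched within 0.01 for 99.9% of the 13051 genes averaging over 1 FPKM.

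Columns were assigned by the names in the sample labels, and 1 WT column matched 2 WT samples. FPKM are not counts, and total counts were not used here. Values of genes whose FPKM were all below 1 gave the relative depth, and 64.4% of the values above the smallest were whole multiples of it within 0.1. Values near 1 FPKM rest on few fragments, and a 0 can be a failed estimate.

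log2(FPKM + 1) was fitted with limma 3.58.1 (R 4.3.3, empirical Bayes with a trend, genotype as sole term) for 13168 genes with at least 1 FPKM in at least 5 libraries. Tests were two-sided and Benjamini-Hochberg adjusted over all genes, and folds on this scale understate changes of low genes. The fit was tested on simulated data. All members were named, with those of the other listed genes that were called or among the 3 largest differences. Members, lists and settings were chosen with earlier results of these data known. Alternatives covered the pseudocount, filter, scaling, weights, an exact Wilcoxon test, left-out libraries and a replicate block. No 2 libraries were duplicates, with a highest correlation of 0.971. Positions are from GENCODE M21 and promoters from RefSeq GRCm38.p6.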

Additional observations from a re-analysis of the deposited data

Results flagged for a closer look

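Outlying libraries were sought within each genotype by the gap of the highest or lowest library to its neighbour relative to the range, in log2(FPKM + 1). By chance this marks about 1 in 20 groups. The groups are not independent, since the enzymes vary together across libraries and their mean is tested too. Many marks for 1 library are therefore not separate evidence. Of 68 groups of values, 16 were marked, and 15 of these were for the unnumbered WT library, always as the lowest of the 7 WT libraries. Its values were 13.3 FPKM for Acat2, 154 for Hmgcs1, 7.26 for Mvd, 7.54 for Idi1, 17.3 for Fdft1, 25.8 for Sqle, 6.77 for Lss, 19.0 for Cyp51, 88.7 for Msmo1, 12.4 for Nsdhl and 55.3 for Sc5d. Outside the enzymes it was low for Srebf2 (22.1 FPKM), Lrp8 (5.16 FPKM) and Scarb1 (138 FPKM). Its mean log2(FPKM + 1) over the 17 enzymes was 4.25, against 6.00 in the next WT library. The remaining mark was for Stard5, at 61.4 FPKM in CKO replicate 3 against 37.3 FPKM in the next CKO library.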

How the results depend on the processing

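The 3 higher members (Nr1h3, Lrp1, Stard5) kept their direction in all 23 alternatives, and Nr1h3 and Lrp1 kept their calls in all 23. The 2 lower members were fewer with no filter on low values (1), the exact Wilcoxon test (0), with CKO replicates 1 and 5 left out (0) or 2 and 3 left out (0), and more without the unnumbered WT library (9). Over the 12 fits leaving out 1 library they numbered 0 to 9, with 0 only without CKO replicate 1. Where none was called, the members lower at an unadjusted p under 0.05 numbered 4 with the Wilcoxon test, 2 without CKO replicate 1 and 3 with either pair of CKO libraries left out (limma). Among the other pathway genes, the 4 higher numbered 2 with the exact Wilcoxon test, 1 without CKO replicates 1 and 5, and 2 to 4 over the fits leaving out 1 library. The 2 lower numbered 1 with no filter, 0 with the Wilcoxon test, 1 with CKO replicates 1 and 5 or with 2 and 3 left out (1 in each), 1 with the replicate block, and 0 to 3 over the fits leaving out 1 library. The cause of these changes was not tested.

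With the replicate block, over the 8 numbered libraries whose assigned numbers occur in both genotypes, 8 members were lower and 3 higher. The same libraries without the block, likewise without the unnumbered WT library, gave 6 lower and 3 higher. The numbers do not mark shared animals or days in the labels, the same-number correlations lay between -0.056 and 0.0961, and 2 of 4 WT libraries correlated best with their own number. Over all 13168 genes tested the calls were 1378 with the block, 756 higher and 622 lower. Without the block they were 1608, not split by direction here.

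Small differences that were not called changed sign. Without CKO replicates 1 and 5, Tm7sf2 was at 0.14 and Msmo1 at 0.053 on the log2 scale. In the fits leaving out 1 numbered library, Tm7sf2 lay between -0.35 and 0.10 and Msmo1 between -0.30 and 0.15, and without the unnumbered WT library they were at -0.42 and -0.35. Ebp was at 0.033 and Srebf1 at 0.12 as differences of group medians, which were taken beside the Wilcoxon test in place of means. In the limma fits leaving out 1 library, Ebp lay between -0.35 and 0.0079 and Srebf1 between -0.15 and 0.0042. Depth limits little here, since all members except Tm7sf2 (1.08 FPKM) and Nr1h3 (1.42 FPKM) stayed above 2 FPKM in every library.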
